A study of Rattus norvegicus with 10 samples.

Results

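The nitric oxide and cyclic GMP pathway of the artery wall was followed through 10 genes, the NO synthases Nos1, Nos2 and Nos3, the soluble guanylyl cyclase subunits Gucy1a1 and Gucy1b1, the natriuretic peptide receptors Npr1, Npr2 and Npr3, the cyclic GMP-dependent kinase Prkg1 and the phosphodiesterase Pde5a. Every probe set annotated to 1 of these symbols, or to an older alias of it, was taken, whatever its value. That gave 11 of the 15866 probe sets tested and 9 of the 10 genes, against 10411 named genes in all. Prkg1 was not analysed here, since no probe set carried its symbol in the annotation used, and 1 further probe set annotated to both Nos2 and the pseudogene Nos2-ps1 was not assigned to a gene. Gucy1a1 and Gucy1b1 each had 2 probe sets.

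The samples, labelled as abdominal aorta, came from Brown Norway (BN) and LOU rats, both inbred strains, with 5 Affymetrix arrays per strain that read the 3′ end of transcripts. The extraction notes also speak of the thoracic aorta. The labels gave an age of 5 weeks with every array, while the notes on husbandry spoke of at most 18 weeks, and sex was not given. The labels named no transgene and no agent for either strain, and strain was the only difference they gave. Whether every array stands for a separate rat is not stated, so all p-values here measure the spread between arrays alone, which may be technical.

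Nitric oxide made by the synthase of the endothelium diffuses into the smooth muscle cells of the arterial media and binds the haem of soluble guanylyl cyclase, a dimer of an alpha and a beta subunit. The cyclic GMP it makes activates the kinase Prkg1, which lowers cytosolic calcium and relaxes the muscle, and phosphodiesterases such as Pde5a break cyclic GMP down. Natriuretic peptides reach the same second messenger through receptors that carry their own cyclase domain.

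The promoters of the soluble cyclase subunits are shown because Gucy1a1 held the only 2 of the 11 probe sets with an unadjusted p under 0.05, although neither passed after adjustment, and Gucy1b1 encodes its partner. Both lie on chromosome 2 of the rat assembly GRCr8, next to each other, with 0 protein-coding genes and 1 snRNA gene between them. The windows are the 300 bases around each annotated gene start, from RefSeq, read 5′ to 3′ on the minus strand. Capitals mark the letters CCAAT and GGGCGG on either strand, the core of the CCAAT box and of the GC box, and adjacent matches run together.

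Gucy1a1, chr2:169779574-169779873: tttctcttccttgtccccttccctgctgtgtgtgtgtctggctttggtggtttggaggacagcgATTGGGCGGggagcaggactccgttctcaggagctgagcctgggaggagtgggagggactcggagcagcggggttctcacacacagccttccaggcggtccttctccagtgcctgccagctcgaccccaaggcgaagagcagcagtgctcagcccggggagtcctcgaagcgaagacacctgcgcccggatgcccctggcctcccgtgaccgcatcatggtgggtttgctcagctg

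Gucy1b1, chr2:169696938-169697237: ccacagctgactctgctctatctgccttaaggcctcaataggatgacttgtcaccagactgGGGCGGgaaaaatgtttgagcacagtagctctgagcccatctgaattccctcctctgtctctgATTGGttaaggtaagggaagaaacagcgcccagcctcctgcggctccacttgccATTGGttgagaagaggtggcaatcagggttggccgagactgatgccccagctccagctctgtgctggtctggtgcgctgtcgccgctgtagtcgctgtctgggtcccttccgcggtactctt

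The Gucy1a1 window held 1 CCAAT and 1 GGGCGG, which overlapped, and the Gucy1b1 window held 2 CCAAT and 1 GGGCGG. Of 33469 rat promoter windows of that length, 37.5% held CCAAT and 33.1% held GGGCGG, so both motifs are common. Neither window held TATAAA, found in 14.2% of windows, or the CArG box of smooth muscle genes, found in 1.64%. The assembly is of the BN strain, and the LOU sequence was not used here.

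None of the 11 probe sets passed the test between the strains (0 with limma at an adjusted p under 0.05). Over all probe sets, 0.246% were higher and 0.542% were lower in BN by that test. Unadjusted p-values were under 0.05 for 2 of the 11, both of Gucy1a1, against 13.3% of all probe sets, so the share was near the background. The log2 differences, BN minus LOU, were negative for 8 of the 11 and positive for 3, 1 of them Npr3 at background level, with a median of −0.20, where all probe sets had a median of −0.03 and 53.5% were negative. Strains did not overlap for 1 of the 11, the second Gucy1a1 probe set, with all BN arrays lower, a pattern that 2.77% of all probe sets showed. Signals of 8 probe sets, from 6 genes, lay above background on all 10 arrays.

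**Figure D1:**
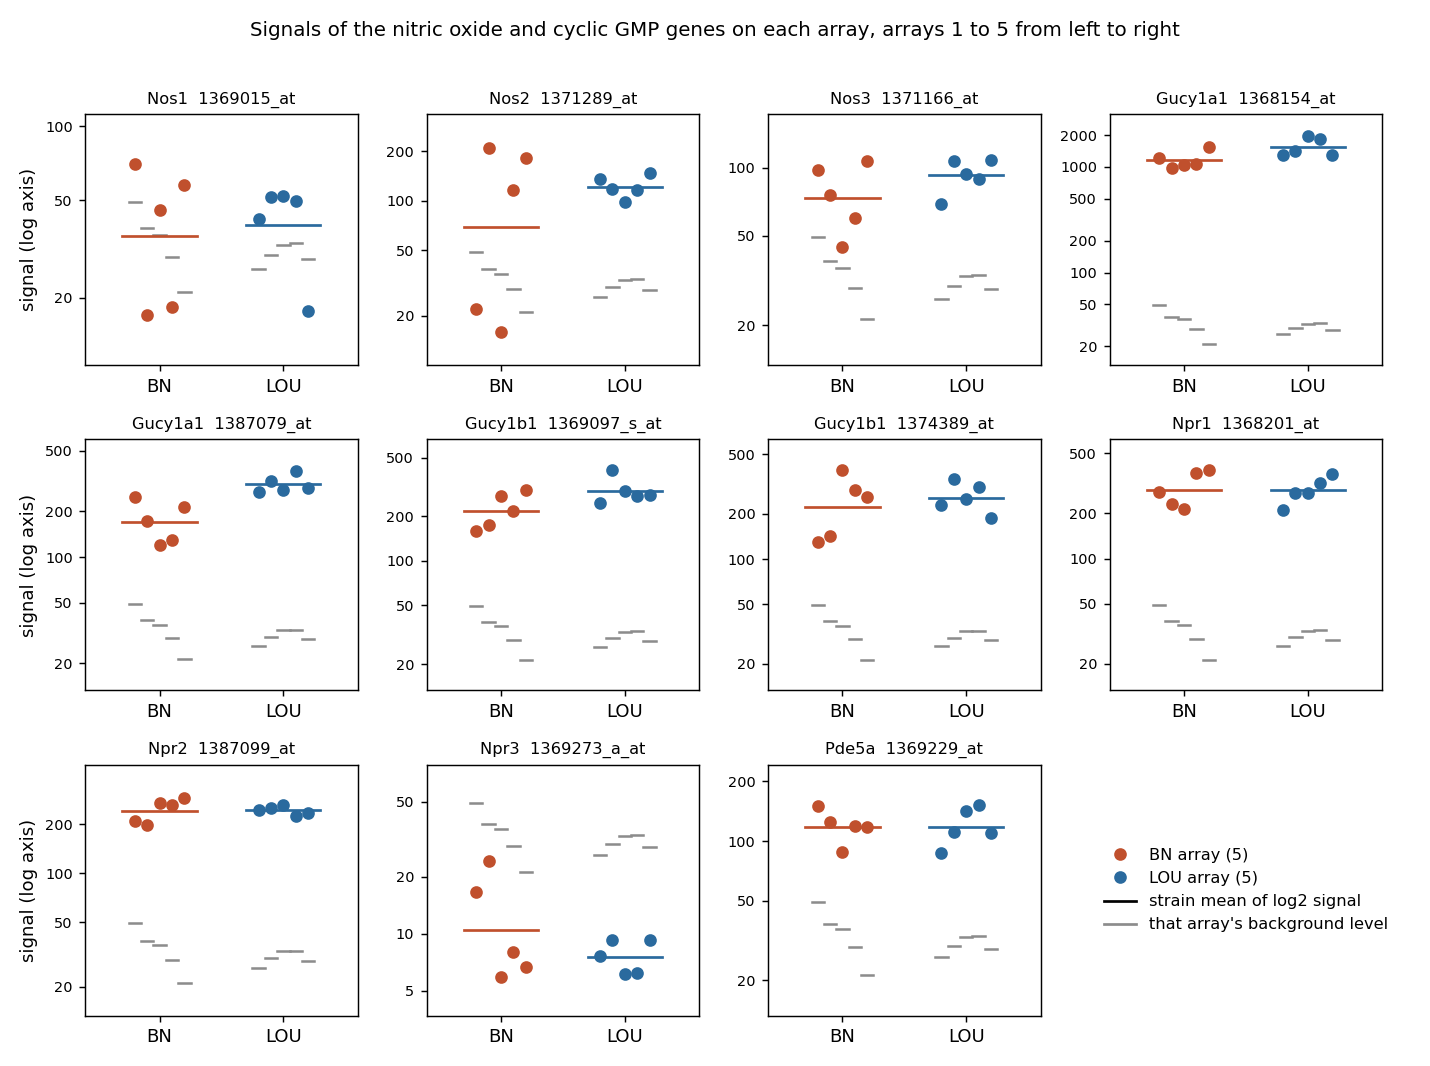
Signal of each probe set on each array (log axis), 5 BN and 5 LOU arrays in order from left to right, with the strain mean of log2 signal as a bar and each array's background level as a grey dash. The second Gucy1a1 probe set, 1387079_at, shows every BN array under every LOU array, and all Npr3 points lie under the background dashes.

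Background was the level that 95% of bacterial control probe sets stayed below on an array, and it ran from 21.2 to 49.2. Median signals ran from 97.4 to 105, and 69.7% to 81.9% of probe sets lay above background. Smooth muscle RNA in the samples was checked with smooth muscle actin, Acta2, whose signal averaged 11845 ± 1709 in BN and 11272 ± 1256 in LOU (SD, n = 5 each), and Tagln, at 12228 ± 1900 and 10481 ± 1720. These genes cannot tell the aorta from other tissue with smooth muscle, so the aortic label itself was not tested. For each array, the mean log2 signal of the smooth muscle markers, after every gene was centred over the 10 arrays, ran from −0.12 to 0.43 in BN and from −0.44 to 0.14 in LOU. That of the endothelial markers, led by Ramp2 and Ptprb, ran from −0.40 to 0.28 and from −0.13 to 0.39. Adipocyte markers, led by Fasn and Gpd1, varied among arrays of both strains, from −1.28 to 1.18 in BN and from −1.21 to 0.85 in LOU. Endothelial markers gave 8 positive and 11 negative strain differences and adipocyte markers 14 and 5, where 52.4% of all genes were negative. In either list 0 genes passed the test, and 0 and 1 had an unadjusted p under 0.05, against 13.2% of all genes.

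A pair of arrays stood apart in other marker lists. BN array 3 had a nerve and Schwann cell mean of 2.42, where the other BN arrays ran up to 0.19, and LOU array 1 had the highest macrophage mean, 0.67, and lymphocyte mean, 1.15. Nerve markers, led by Pmp22 and Uchl1, were positive for 20 of 23 genes, with a median log2 difference of 0.66. In that list 4 had an unadjusted p under 0.05, against 13.2% of all genes. The test was passed by 1, where 0.240% of all genes were higher in BN. By contrast, macrophage markers were negative for 10 of 14 and lymphocyte markers for 10 of 13, against 52.4% of all genes. In either list 0 passed, and 0 and 2 had an unadjusted p under 0.05, against the same 13.2%. Their brightest genes did not all share that sign: Lgals3 gave 0.45, Lyz2 −0.27, Lck −0.365 and Cd4 0.04. With both of these arrays left out, still 0 of the 11 probe sets passed the test. In such bulk tissue, fewer cells of a type and less RNA per cell cannot be told apart.

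Of the synthases, endothelial Nos3 was measured most firmly, and no synthase differed between the strains beyond the spread of its arrays. Nos3, the enzyme whose nitric oxide sets resting tone, gave signals of 97.6, 75.7, 44.4, 59.6 and 107.2 on BN arrays 1 to 5 and of 69.1, 107.8, 94.2, 89.3 and 108.2 on LOU arrays 1 to 5. The lowest 2 values were from BN, and the strains overlapped over most of their range. Means were 76.9 ± 26.0 in BN and 93.7 ± 16.1 in LOU (SD, n = 5 each), all above background. The log2 difference was −0.34 (SE 0.25, 95% interval −0.89 to 0.22, adjusted p = 0.602 by limma). Without BN array 3, which had the lowest endothelial marker mean, −0.40, it was −0.16.

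Nos2, the inducible synthase of inflamed tissue, gave 22, 210.1, 16, 117.2 and 183.4 in BN and 135.2, 118.2, 98.7, 116.2 and 148.0 in LOU. BN held both the highest values and the lowest ones, and BN arrays 1 and 3 were under background, while the LOU arrays stayed close together. The SD was 89.5 around a mean of 109.7 in BN and 18.9 around 123 in LOU. This gave a log2 difference of −0.82 (SE 0.71, 95% interval −2.40 to 0.76, adjusted p = 0.660 by limma). With 1 array left out it ran from −1.22 to −0.29, the latter without BN array 3. The probe set shared with Nos2-ps1 was above background on 0 BN arrays and 2 LOU arrays.

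Nos1, the neuronal synthase, lay close to background. Its signals were 69.9, 17.0, 45.7, 18.4 and 57.6 in BN and 41.8, 51.4, 51.8, 49.6 and 17.7 in LOU, above background on 3 and 4 arrays. The strains overlapped throughout, and the log2 difference was −0.15 (SE 0.47, 95% interval −1.20 to 0.89, adjusted p = 0.918 by limma). BN array 3, with its high nerve marker mean, was not the highest for Nos1.

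Of the soluble cyclase, the alpha subunit Gucy1a1 gave lower values in BN on both of its probe sets, although neither passed the test over all probe sets. Probe set 1387079_at gave 248.3, 173.6, 120.7, 129.9 and 212.9 in BN and 268.7, 314.6, 274.6, 371.2 and 285.2 in LOU. The highest BN array, array 1, lay under the lowest LOU array, also array 1, so the strains did not overlap. Means were 177 ± 54.3 and 303 ± 42.1 (SD, n = 5 each). From the difference between mean log2 signals, the LOU level was 1.76-fold the BN level (95% interval 1.27 to 2.45). The log2 difference was −0.82 (SE 0.21, unadjusted p = 0.00317, adjusted p = 0.130 by limma). Over the alternatives run, the adjusted p for this probe set ranged from 0.0514 to 0.308.

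Probe set 1368154_at of the same gene gave 1226.4, 984.1, 1047.7, 1068.8 and 1549.2 in BN and 1299.6, 1413.3, 1964.2, 1821.3 and 1308.8 in LOU. Here BN array 5 was above 3 of the 5 LOU arrays, and the other BN arrays were below all LOU arrays. The LOU level was 1.33-fold the BN level (95% interval 1.01 to 1.74), a log2 difference of −0.41 (SE 0.18, adjusted p = 0.358 by limma). Levels of different probe sets cannot be set against each other, but their differences both pointed to LOU. Across the 10 arrays the log2 signals of the 2 probe sets correlated at r = 0.74, and at 0.50 after each strain was centred on its mean, as a description of arrays that share their RNA.

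The beta subunit Gucy1b1, which carries the haem, gave 159.8, 175.7, 272.9, 216.3 and 299.8 in BN and 247.4, 414.7, 298.8, 275.4 and 277.2 in LOU on probe set 1369097_s_at. BN arrays 1, 2 and 4 lay under all LOU arrays, while BN arrays 3 and 5 lay among them. The difference was −0.45 on the log2 scale (SE 0.21, 95% interval −0.92 to 0.03, adjusted p = 0.403 by limma), with means of 225 ± 60.5 and 303 ± 65.2 (SD, n = 5 each). The second probe set, 1374389_at, gave 129.4, 143.4, 393.1, 289.6 and 260.3 in BN and 228.4, 340.9, 252.8, 301.5 and 187.9 in LOU, and its log2 difference was −0.20 (SE 0.32, adjusted p = 0.823 by limma). Its highest value came from BN array 3 and its lowest from BN arrays 1 and 2, so the strains overlapped fully. With 1 array left out its difference ran from −0.41 without BN array 3 to −0.008 without BN array 1. The 2 Gucy1b1 probe sets correlated at r = 0.75 over the arrays and 0.79 within strains.

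**Figure D2:**
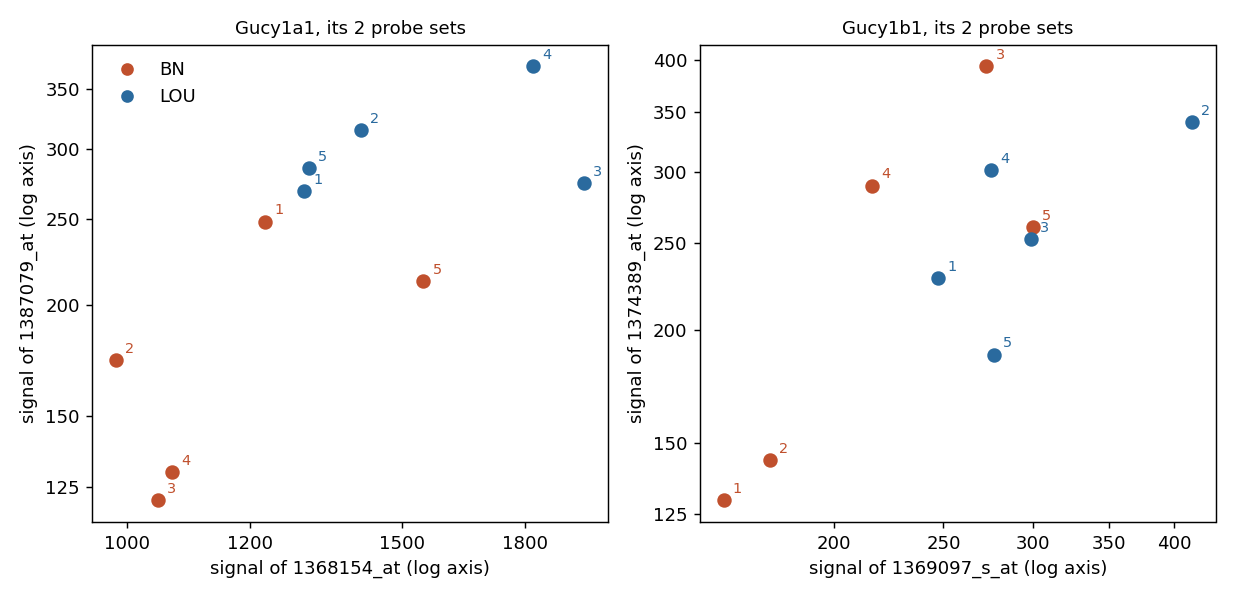
Signal of 1 probe set against the other (both log axes) for Gucy1a1, left, and Gucy1b1, right, with 1 numbered point per array, 5 BN and 5 LOU. On the left the BN points lie below the LOU points on the vertical axis, from 120.7 to 248.3 against 268.7 to 371.2, and on the right the strains mix, with BN arrays 1 and 2 lowest on both axes.

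Over the 10 arrays, with each strain centred, Gucy1a1 and Gucy1b1 (brightest probe set of each) showed no relation past the threshold in a permutation test (Pearson r = 0.26, p = 0.502, Spearman rho = 0.36, p = 0.332). Without the 2 arrays farthest from the median of Gucy1b1, r was 0.05.

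Gucy1a1 and Gucy1b1 are smooth muscle genes, so their levels were also set against the smooth muscle marker mean of the same array. For Gucy1a1 the value relative to the markers ran from −0.45 to −0.21 in BN and from −0.07 to 0.65 in LOU, with no overlap, and the difference was −0.61 (exact permutation test over arrays, two-sided p = 0.00794, the smallest possible for 5 against 5, and 0.0715 after adjustment over 9 such pairs). For Gucy1b1 it was −0.65 (exact p = 0.0238, adjusted 0.107), and BN array 3 lay among the LOU arrays. The smooth muscle markers themselves were positive in BN for 14 of 17 genes, with a median log2 difference of 0.19, where 52.4% of all genes were negative. Of the 17, 0 passed the test and 3 had an unadjusted p under 0.05, against 13.2% of all genes. Markers of the adventitial fibroblast of the outer wall, led by Dcn and Col15a1, were negative for 13 of 16 genes, with a median of −0.39. Of the 16, 0 passed but 8 had an unadjusted p under 0.05, against the same 13.2%. All 16 of these markers were above background on every array of a strain. Their mean ran from −0.44 to −0.01 in BN and from −0.11 to 0.61 in LOU, and its part in the Gucy1a1 values was not tested.

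The natriuretic receptors showed no difference that these arrays could resolve. Npr1, the receptor of the atrial and brain peptides, gave 277.5, 229.1, 213.1, 372.8 and 387.0 in BN and 209.1, 274.7, 274.5, 317.8 and 367.7 in LOU. The ranges covered each other, and the log2 difference was 0.02 (SE 0.22, 95% interval −0.47 to 0.50, adjusted p = 0.982 by limma). Npr2, the receptor of C-type peptide, gave 208.7, 197.0, 269.4, 263.0 and 291.0 in BN and 245.5, 251.7, 261.5, 226.1 and 235.2 in LOU. The LOU arrays lay within the BN range, with an SD of 13.8 against 40.8, and the log2 difference was −0.004 (SE 0.14, 95% interval −0.31 to 0.30, adjusted p = 0.993 by limma). The sign of the Npr2 value turned under median centring and quantile normalization.

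Npr3, the clearance receptor that removes natriuretic peptides, was not well above background. Its signals ran from 5.9 to 24.4 in BN and from 6.1 to 9.3 in LOU, below the background of each of the 10 arrays, so no fold is given.

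Pde5a, the phosphodiesterase that hydrolyses cyclic GMP in smooth muscle and is blocked by sildenafil, gave 150.6, 124.6, 88.1, 118.8 and 117.7 in BN and 87.3, 111.1, 141.3, 151.4 and 109.3 in LOU. The strains spanned nearly the same range, with SDs of 22.3 and 26.0 around almost equal means (n = 5 each). For Pde5a the log2 difference was 0.006 (SE 0.19, 95% interval −0.42 to 0.43, adjusted p = 0.993 by limma).

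**Figure D3:**
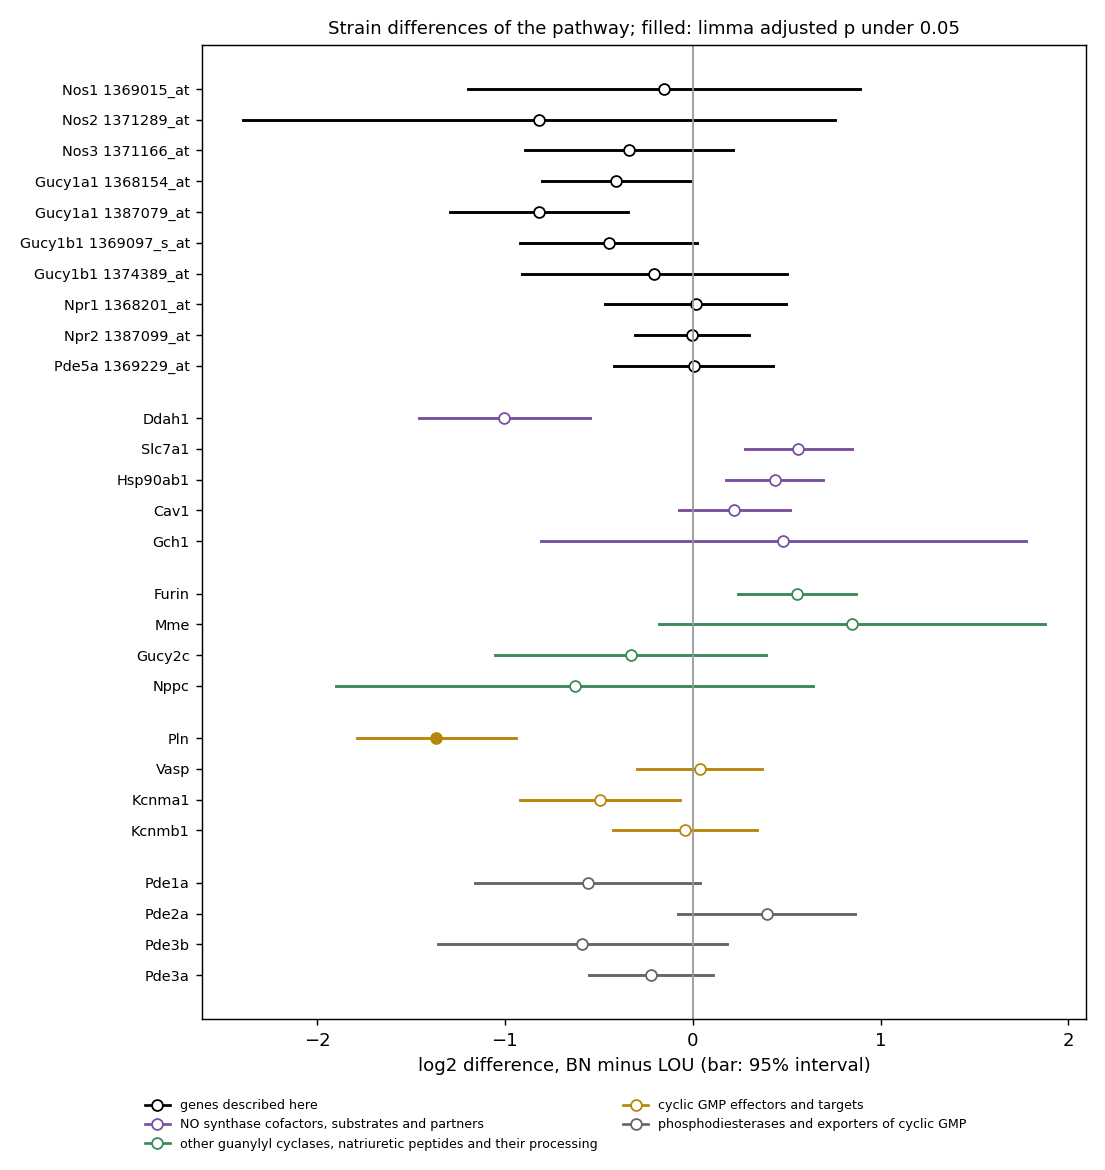
Log2 difference, BN minus LOU, with its 95% interval for each probe set of the 8 genes with an array above background and for the named genes of 4 related lists. Filled points passed the limma test at an adjusted p under 0.05, which only Pln did, at −1.36.

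Set against markers of the cell type each is thought to come from, the remaining values overlapped between strains. Nos3 relative to endothelial markers gave −0.32 (exact permutation test, p = 0.159, adjusted 0.369), Pde5a relative to smooth muscle −0.20 (p = 0.246) and Npr2 relative to smooth muscle −0.21 (p = 0.246). Npr1 gave 0.04 relative to endothelial and −0.41 relative to adipocyte markers (p = 0.802 and 0.587 by the same exact test). Nos1 relative to nerve markers gave −0.90 (exact p = 0.238) and Nos2 relative to macrophage markers −0.73 (exact p = 0.421). The lowest Nos1 value, −2.14, came from BN array 3, with its high nerve mean. With 1 array left out, the Nos1 difference ran from −1.32 to −0.475 and the Nos2 difference from −1.13 to −0.21. Of the 9 pairs, 0 passed after adjustment, but a single pair at the smallest possible p adjusts to 0.0715, so no lone pair could pass.

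**Figure D4:**
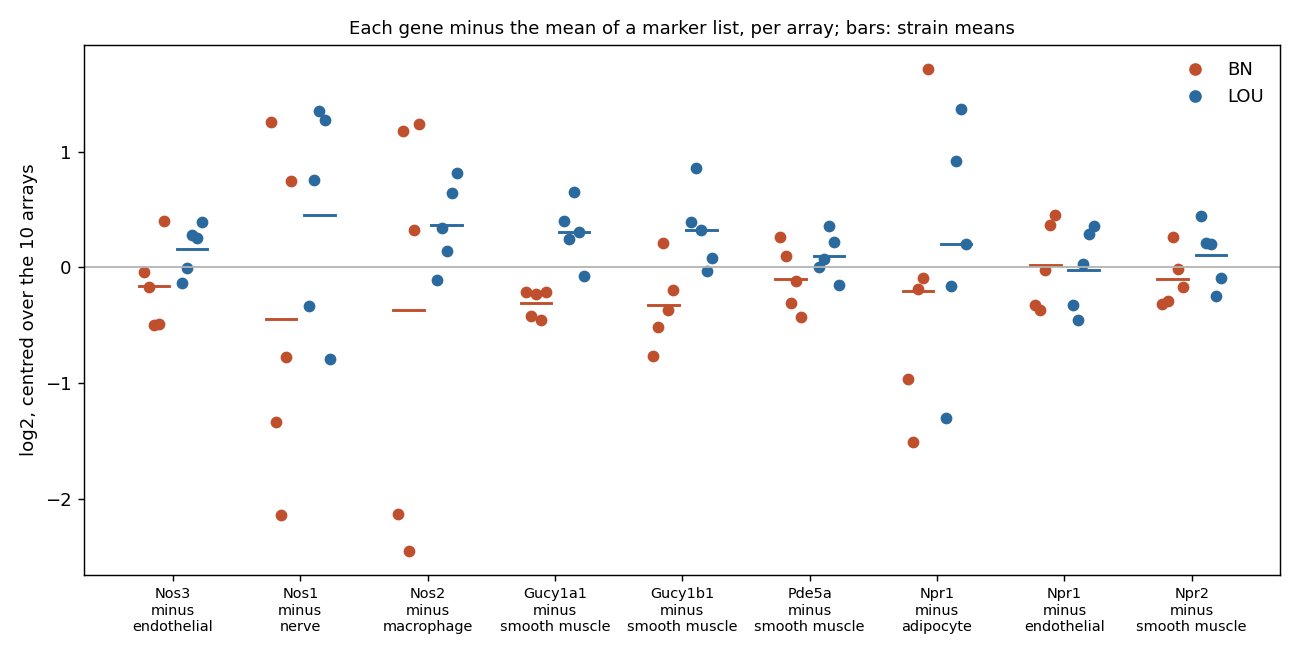
Log2 signal of each gene minus the mean of a marker list on the same array, centred over the 10 arrays, with 1 point per array and strain means as bars. For Gucy1a1 relative to smooth muscle markers the BN points run from −0.45 to −0.21 and the LOU points from −0.07 to 0.65.

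Within strains, Nos3 followed the endothelial mean most closely of 5 relations computed (n = 10, each strain centred). Pearson r was 0.70 (permutation p = 0.0412, adjusted 0.206) and Spearman rho 0.64 (permutation p = 0.0501, adjusted 0.237), so it did not pass the adjustment. It was 0.77 within BN and 0.62 within LOU, and 0.53 without the 2 arrays farthest from the median of the marker mean. Pde5a with the smooth muscle mean gave r = 0.59 (permutation p = 0.0934) and rho = 0.47 (permutation p = 0.206). Nos1 with the nerve mean gave r = 0.02 (permutation p = 0.985) and rho = −0.44 (permutation p = 0.233), and Npr1 with the adipocyte mean r = −0.45 (permutation p = 0.234) and rho = −0.60 (permutation p = 0.0947).

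Among the cofactors, substrates and partners of the synthases, 20 of 28 listed genes were measured, each read from its brightest probe set, and 0 passed the test, where 0.240% of all genes were higher and 0.480% lower in BN. Unadjusted p was under 0.05 for 4 of the 20, Ddah1, Slc7a1, Hsp90ab1 and Calm2, against 13.2% of all genes. For these 4 the strains did not overlap, 3 of them higher and 1 lower in BN, where 1.75% of all genes were higher and 2.63% lower without overlap. The list's median log2 difference was 0.11, with 13 genes positive and 7 negative, against a median of −0.02 over all genes. Calm2, a calmodulin gene, was named after its values were seen.

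Ddah1, which degrades the endogenous synthase inhibitor asymmetric dimethylarginine, gave the lower values in BN, at 232.3, 299.3, 420.4, 238.1 and 272.8 against 464.8, 446.7, 730.5, 637.7 and 631.7 in LOU. Every BN array was under every LOU array. On the log2 scale the difference was −1.002 (SE 0.21, adjusted p = 0.0620 by limma), a 2.00-fold higher LOU level. It passed without BN array 3 (adjusted p = 0.0324), without the dimmest 40% of probe sets (0.0178) and under 4 more alternatives, and its adjusted p reached 0.153 over all of them.

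Slc7a1, the arginine transporter, gave 277.3, 303.4, 363.2, 375.4 and 358.1 in BN against 194.9, 230.5, 247.0, 232.5 and 227.0 in LOU, with every BN array above. Its log2 difference was 0.56 (SE 0.13, adjusted p = 0.0900 by limma). On its second probe set the strains overlapped, with a difference of 0.63 (SE 0.24, adjusted p = 0.302 by limma), while the third was above background on 1 BN and 0 LOU arrays. Slc7a1 passed without the dimmest 40% of probe sets (adjusted p = 0.0349) and with a variance trend (0.0331), and its adjusted p reached 0.228 over the alternatives. Hsp90ab1, a chaperone that binds Nos3, averaged 3179 ± 390.2 in BN and 2340.2 ± 132 in LOU (SD, n = 5 each) on its brightest probe set. That was a log2 difference of 0.44 (adjusted p = 0.138 by limma). Its second probe set gave 0.34 (adjusted p = 0.401 by limma), and there the strains overlapped. Calm2 gave 0.43 (adjusted p = 0.142 by limma). Cav1, the caveolar protein that holds Nos3 inactive, gave 0.22 (adjusted p = 0.521 by limma) on its brightest probe set and 0.02 on its second, and Gch1, which makes the synthase cofactor tetrahydrobiopterin, was above background on 4 BN and 3 LOU arrays.

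Of the other guanylyl cyclases, natriuretic peptides and their processing enzymes, 14 of 16 genes were measured, 5 were above background on no array, and 0 passed the test. Only 1 gene, Furin, had an unadjusted p under 0.05, against 13.2% of all genes. The median was −0.13, with 5 positive and 9 negative. Furin, a protease that cleaves pro-natriuretic peptides, averaged 297 ± 51.6 in BN and 200.2 ± 14.7 in LOU (SD, n = 5 each). Every BN array lay above every LOU array, a pattern that 1.75% of all genes showed. The log2 difference of Furin was 0.55 (adjusted p = 0.122 by limma). Mme, neprilysin, which degrades the peptides, gave 0.85 (adjusted p = 0.471 by limma). Gucy2c gave −0.33 and Nppc, the C-type peptide gene, −0.63, both near background, with adjusted p of 0.700 and 0.675 by limma.

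Of the effectors and targets of cyclic GMP, 27 of 32 genes were measured, 15 positive and 12 negative with a median of 0.06. Pln was the 1 gene that passed, and it was lower in BN, where 0.240% of all genes were higher and 0.480% lower by that test. Unadjusted p was under 0.05 for 6 of the 27 against 13.2% of all genes, Pln, Csrp2, Hspb1, Kcnma1, Trpc6 and Rgs2, of which Csrp2, Hspb1, Trpc6 and Rgs2 were named after their values were seen. Csrp2 gave 0.68, Hspb1 0.94 and Rgs2 0.48, with adjusted p from 0.138 to 0.358 by limma. Trpc6 was above background on only 3 BN arrays and 1 LOU array.

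Pln encodes phospholamban, which holds back the calcium pump of the sarcoplasmic reticulum until it is phosphorylated. Probe set 1388876_at gave 513.0, 473.7, 429.5, 645.5 and 679.5 in BN and 1053.0, 1165.8, 1544.4, 1736.0 and 1573.1 in LOU. The highest BN array lay well under the lowest LOU array. The log2 difference was −1.36 (SE 0.19, adjusted p = 0.0105 by limma), a 2.57-fold higher level in LOU. The second probe set, 1370157_at, gave −1.12 (adjusted p = 0.00640 by limma), with 413.6, 436.3, 365.3, 549.3 and 522.3 against 855.7, 930.4, 1083.4, 1036.8 and 1038.9. With the replicate number as a block the adjusted p of the first was 0.0650. Striated muscle markers, measured because striated muscle also expresses Pln, had a median log2 difference of −0.04 over 18 genes, 5 of them above background on no array. Against 13.2% of all genes, 4 of these 18 markers had an unadjusted p under 0.05, and 0 passed. Of their brightest genes, Acta1 gave −0.06 (adjusted p = 0.888 by limma), while the 5 probe sets of Myh1 gave from 0.33 to 1.64 and disagreed on the call. The mean of these markers ran from −0.03 to 0.42 in BN and from −0.27 to −0.07 in LOU, and its part in the Pln values was not tested.

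The transcript of Vasp, which encodes a substrate of Prkg1, gave 0.04 (adjusted p = 0.942 by limma), and its sign turned under array weights. The arrays read RNA only, so the activity of the kinase was not measured. Kcnma1, the calcium-activated potassium channel, gave −0.49 (adjusted p = 0.301 by limma) on its brightest probe set. Probe set 1370472_a_at of Kcnma1 gave −0.17, above background on 2 BN and 2 LOU arrays, and 1369334_at gave 0.09, on 1 BN and 0 LOU arrays. The channel's subunit Kcnmb1 gave −0.04 (adjusted p = 0.945 by limma), turning sign under median centring. Irag1, a Prkg1 partner on the calcium store, was not analysed here.

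Of the phosphodiesterases and exporters of cyclic GMP other than Pde5a, 12 of 17 genes were measured and 0 passed. At an unadjusted p under 0.05 there were also 0, against 13.2% of all genes. The median was −0.02, with 5 positive and 7 negative. Pde1a, activated by calmodulin, gave −0.56 (adjusted p = 0.411 by limma) near background. Pde2a, which cyclic GMP activates, gave 0.39 (adjusted p = 0.464), Pde3b −0.59 (adjusted p = 0.511) and Pde3a, which cyclic GMP inhibits, −0.22 (adjusted p = 0.567), all by limma.

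**Figure D5:**
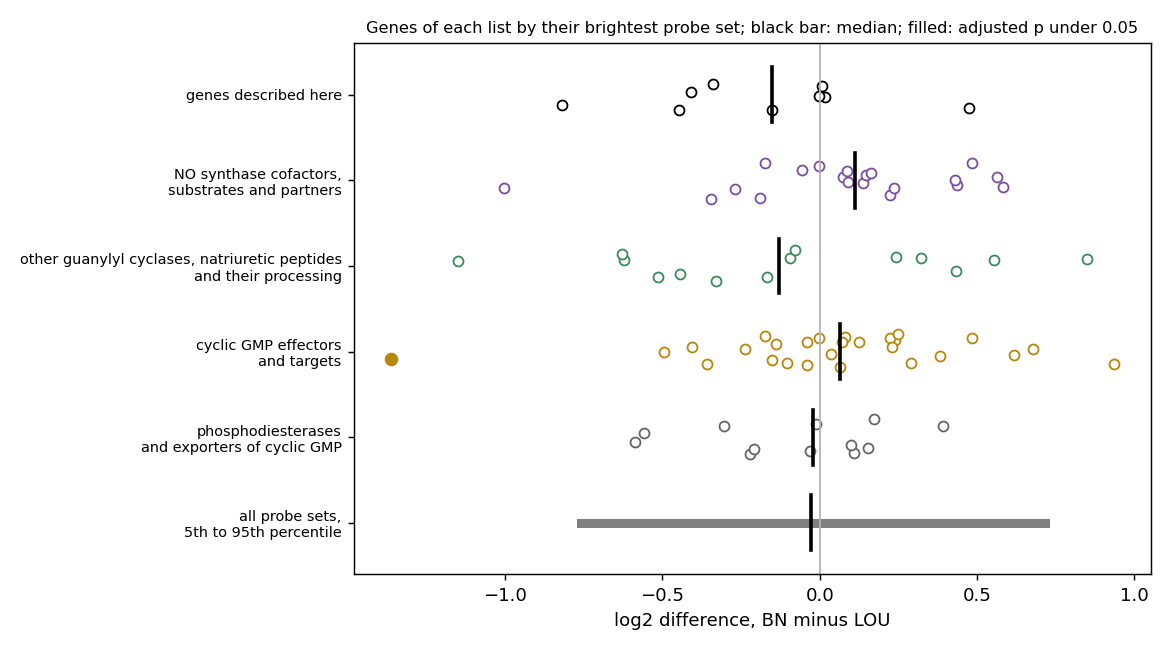
Log2 difference, BN minus LOU, of each gene's brightest probe set in the pathway and 4 related lists, with list medians as black bars, filled where the limma adjusted p was under 0.05, above the 5th to 95th percentile of all probe sets. The Pln point at −1.36 is the only filled one, and the Npr3 point rests on signals below background.

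As a description of which genes had the most similar pattern over the 10 arrays, among 7369 genes above background on all of them, Nos3 was closest to Afap1l2 and Ing3 (r = 0.94 for each) and Rxrb (0.92). Gucy1a1 was closest to Aarsd1 (0.97), Sft2d2 (0.94) and Mmp2 (0.93), and Gucy1b1 to Sec62, Tspan6 and Lztfl1 (0.94 for each). Npr1 was closest to Ccnt2 (0.95), Mapk14 (0.93) and Lnc215 (0.90), and Npr2 to Ap1ar and Plpp5 (0.94 for each) and Tbce (0.92). Pde5a was closest to Inhba and Atp13a1 (0.90 for each) and Rhoj (0.89). Such r values come from the whole array set, both strains together, and carry no test.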

How the data were processed

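Total RNA was labelled as biotin cRNA and measured on 10 arrays, 5 per strain, per the labels. The deposited values are linear intensity signals, 1 for each probe set, from 0 to 22219.9, with a 2% trimmed mean of 200.05 to 200.06 on every array. RMA, which gives log2 values, is named in the submitters' processing notes with no version, so the authors' scaling is known only from the values. The test was planned on log2 values, so log2(signal) was computed, with 4 zeros set to 0.1.

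Of 15923 probe sets, 57 controls were left out. BN minus LOU was fitted over the other 15866 with limma 3.58.1 (R 4.3.3; lmFit, eBayes, strain as the only term, two-sided, Benjamini-Hochberg over all probe sets, threshold 0.05). As background, the 95th percentile over 45 bacterial controls was used, a rule taken over from earlier work on these data. Gene symbols were brought up to date by gene identifier (12748) or accession (2) from a RefSeq table of GRCr8, 33 were kept as listed, and 312 probe sets had several symbols and 2771 none. Signal over background sets the precision, since arrays give no counts. No column was left unmapped, and no 2 arrays shared more than 0.353% of values.

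The genes and lists were chosen with earlier results of these data known. Named are all 10 genes, up to 4 genes per related list that passed or, failing that, 3 with the smallest p, 11 further genes whatever their value, the 3 most alike genes per member, and the brightest 2 genes per marker list, of which those that touch a result are given. Marker lists of 8 cell types were averaged per array, and exact permutation tests and 100000 permutations used scipy 1.17.1. Scripts (Python 3.11.15, numpy 2.4.6, pandas 2.3.3, matplotlib 3.10.9) were tested on simulated data. With the means and spreads of these arrays, limma called 48.2% of probe sets given a log2 change of 1. For a log2 change of 2 it called 84.7%, so a lack of calls does not show equal levels. Alternatives were centring arrays on their medians, quantile normalization, no dimmest 40%, log2(signal + 16), array weights, a variance trend, a replicate block, leaving out single arrays or BN array 3 with LOU array 1, and averaging all probe sets of a gene.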

Additional observations from a re-analysis of the deposited data

Results flagged for a closer look

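Among 72 groups of 5 arrays examined (the pathway's probe sets and the named genes of related lists), 4 had 1 array far from the others by Dixon's ratio. That ratio is the gap to the nearest array over the whole range, taken on log2 signals, and chance gives about 1 in 20. Signals below are linear. Nos1 on LOU array 5 was the lowest of its strain, at a signal of 17.7 and a ratio of 0.800. Hsp90ab1 probe set 1375336_at was highest on BN array 3, at 3861.3 and 0.748, and its probe set 1375335_at was highest on LOU array 4, at 2791.2 and 0.754. Gch1 probe set 1387221_at was lowest on LOU array 3, at 7.4 and 0.765.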

How the results depend on the processing

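The 11 pathway probe sets gave 0 calls under every alternative run, including each array left out (0 to 0). Over all probe sets, 39 were higher and 86 lower in BN. Without the dimmest 40% there were 78 and 175, with log2(signal + 16) 60 and 144, with a variance trend 81 and 161, and with the replicate number as a block 10 and 13. Leaving out BN array 3 and LOU array 1 gave 16 higher and 59 lower. Leaving out 1 array gave 17 to 36 higher and 45 to 91 lower. Replicate numbers did not pair the arrays: same-numbered arrays correlated at −0.045 to 0.015 in their deviations. The block ended the call of the brightest Pln probe set, 1388876_at, and its effect on the second is not given here. Values turned sign for Npr2 (0.047 with median centring, 0.025 with quantile normalization), Vasp (−0.005 with array weights), Kcnmb1 (0.010 with median centring) and Npr1 relative to endothelial markers (−0.025 without both arrays). With 1 array left out, Nos1 ran from −0.443 to 0.114, Npr1 from −0.093 to 0.125, Npr2 from −0.069 to 0.072, Pde5a from −0.103 to 0.112, Gch1 from −0.017 to 0.702, Vasp from −0.046 to 0.109, Kcnmb1 from −0.171 to 0.028 and Npr1 relative to endothelial markers from −0.069 to 0.137. The cause of each was not tested. Nos1 and Npr3 were among the dimmest 40% and had no value there. Signal near background limits Nos1, Npr3, Gch1, Trpc6 and Nppc.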
